A study of Homo sapiens with 6 samples.

Results

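The genes described here are C10orf10, TXNIP, ARRDC4, CCNG2, IRS2, PIK3IP1, SESN3, BCL6, CITED2 and FOXO3, 10 genes grouped as nutrient- and FOXO-responsive genes of growth restraint, out of 24462 gene symbols in the counts. IRS2 also passes growth signals on, and FOXO3 is itself a FOXO factor. They were chosen from a named list matched to the gene symbols. This list and the gene lists below were chosen with earlier results of these data known. Their counts beside the shares of all genes are therefore descriptions and not independent support. C10orf10 was picked on these data, for its large fall in the 2 libraries whose labels give miR-200a plus ELK3 (called ELK3-labelled below), so its values there are a description with no test. All 10 were listed in every library and all 10 passed the filter on low counts, which left 12650 genes.

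The study asked what the microRNA miR-200a and the ETS-family transcription factor ELK3 do in MDA-MB 231, an established human triple negative breast cancer cell line. RNA was taken 48 h after transfection with a negative control (NC) mimic, with a miR-200a mimic at 100 nM, or with the miR-200a mimic at 100 nM and 30 ng of a pcDNA3.1 plasmid that carries ELK3, with 2 QuantSeq 3′ mRNA libraries in each of the 3 groups. All groups were the same cell line after lipid-based transfection, and none of the libraries was labelled as having received the plasmid alone or an empty plasmid, so the plasmid DNA and the ELK3 it carries cannot be told apart. Nothing in the labels says that the 2 libraries of a group came from separate cultures, so the p-values measure the spread between these libraries, which may be technical.

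FOXO transcription factors are held in the cytoplasm when insulin or growth factor signalling through PI3K and AKT is on. When that signalling is low they enter the nucleus and switch on genes that slow the cell cycle, spare nutrients and answer stress. TXNIP and ARRDC4, both alpha-arrestins that limit glucose uptake, are in addition targets of MondoA (MLXIP), a factor that binds carbohydrate response elements when glucose phosphates rise. Such genes are commonly high in resting cells and low in growing ones.

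The strand added by the mimic is relevant to the first comparison, so the mature 3p strand of miR-200a is shown as RefSeq lists it, at chr1:1167916-1167937 on the plus strand of GRCh38.p14, with its seed (bases 2 to 8) in capitals. The labels do not name the arm. The sense sequence that the paper gives for miR-200a has the same bases as this strand.
hsa-miR-200a-3p: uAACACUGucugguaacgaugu

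A match to that seed reads CAGTGTT in a transcript. In the GENCODE release 29 transcript with the longest annotated 3′UTR (principal coding isoforms taken first), 4 of the 10 genes had 1 match each, against 19.7% of the 11162 tested genes that could be searched. The 4 were TXNIP, ARRDC4, IRS2 and FOXO3. Their searched 3′UTRs were 1416, 2651, 3606 and 4982 bases long in this order, where the median over the tested genes was 1123. Longer sequences hold more places for a match, and length was not matched, so the 2 shares are not a measure of excess. No match was found for the other 6, C10orf10 (DEPP1 in the current annotation), CCNG2, PIK3IP1, SESN3, BCL6 and CITED2. The matches are shown because they are the places in these genes where the mimic's seed could pair, with the 7 matching bases in capitals and in the direction of the transcript. They lie at chr1:145993341-145993369 (minus strand, TXNIP), chr15:97972481-97972509 (plus, ARRDC4), chr13:109754080-109754108 (minus, IRS2) and chr6:108680622-108680650 (plus, FOXO3) of GRCh38.
TXNIP: gttcttaaaatCAGTGTTtcccctttgtg
ARRDC4: gaaagtctgagCAGTGTTttaccgtcccc
IRS2: cagttattaaaCAGTGTTttctttttggg
FOXO3: gctaatgtgaaCAGTGTTggtctgctggt

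All 4 are followed by a base other than A, so none extends to the longest class of seed match. A match is a description of letters and not a shown target.

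The promoters were searched for motifs of the factors named above, in RefSeq windows from 250 bases before to 50 bases after each listed start (GRCh38.p14), which held all 10 genes. The forkhead motif GTAAACA, on either strand, was in a window of C10orf10, TXNIP and PIK3IP1, and in a window of 4.19% of all 27305 genes. The palindromic E-box CACGTG was in a window of ARRDC4, CCNG2 and CITED2, and of 8.77% of all genes. A pair of CACGNG sites 5 bases apart on either strand, the form of a carbohydrate response element, was in a TXNIP window and in a window of 0.0732% of all genes. E-box letters can also be 1 member of such a pair. IRS2, SESN3, BCL6 and FOXO3 held none of these letters in the windows searched, which says nothing of the factors themselves.

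The forkhead matches and the paired sites are shown as the motifs of the FOXO factors and of MondoA. The E-box windows are not printed. C10orf10 was picked for its fall, so these matches cannot be set against the order of falls, and a link between them was not tested. The motif is in capitals, and the strand is that of the gene. The windows are chr10:44978972-44979000 (minus strand, C10orf10), chr1:145996686-145996714 (minus, TXNIP), chr22:31292455-31292483 (minus, PIK3IP1, where the motif is read on the other strand) and, for the paired sites of TXNIP, chr1:145996645-145996673 (minus).
C10orf10: tgccctgcagcGTAAACAttccccagcct
TXNIP forkhead: tcgggctcctgGTAAACAaggaccgggca
PIK3IP1: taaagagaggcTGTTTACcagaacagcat
TXNIP paired sites: gatgtgCACGAGGGCAGCACGAGcctccg

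Library totals ranged from 3055915 to 4868004 counts. ELK3 itself, chosen as a check of the labels, had 618 and 509 counts under the NC mimic, 493 and 505 under miR-200a, and 406 and 337 in the ELK3-labelled libraries. Its level there was below the NC mimic (log2 fold change -0.79 ± 0.15 SE, adjusted p = 0.0117) and did not pass the test against miR-200a (-0.23 ± 0.15, adjusted p = 0.354). A rise of ELK3 was therefore not seen in the libraries labelled as having it added. The paper describes the plasmid as holding the coding region of ELK3 without an intact 3′UTR. Counts of 3′ ends would hold plasmid transcripts only where these carry the counted end of the gene, which was not tested. These counts therefore cannot settle whether ELK3 was added. By qRT-PCR and western blot, the paper reports that ELK3 mRNA and protein returned to the control level with the plasmid. Those 2 libraries also stood further apart than the others. Over 5772 genes with a mean log2 CPM above 5, their root mean square log2 difference was 0.434, against 0.188 between the NC mimic libraries and 0.151 between those of miR-200a. The cell line's markers VIM, CD44, CAV1 and AXL summed to 3855 and 4142 CPM (counts per 1000000 of the scaled library total) with the NC mimic, 3846 and 4035 under miR-200a, and 3457 and 2620 in the ELK3-labelled libraries. Of the other cell types' markers, ESR1 and CDH5 had no count in any library and the 4 blood and endothelial markers summed to 1.78 to 4.26 CPM. The 5 luminal markers summed to 12.9 to 38.6 CPM, with the highest sums in the 2 miR-200a libraries. In bulk RNA, fewer cells with a transcript and less of it per cell cannot be told apart.

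The main pattern was a lower level of several of the 10 genes in the ELK3-labelled libraries, while none was called under miR-200a alone. Against miR-200a, 5 of the 9 genes that were tested fell and none rose, by edgeR's quasi-likelihood test at an adjusted p under 0.05. These were TXNIP, CCNG2, IRS2, PIK3IP1 and BCL6. Among all genes tested, 12.9% were called in either direction in this comparison, and 5.91% were called lower. All 9 fitted changes were below 0, with a median log2 fold change of -1.22 beside 0.02 over all genes tested.

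**Figure D1:**
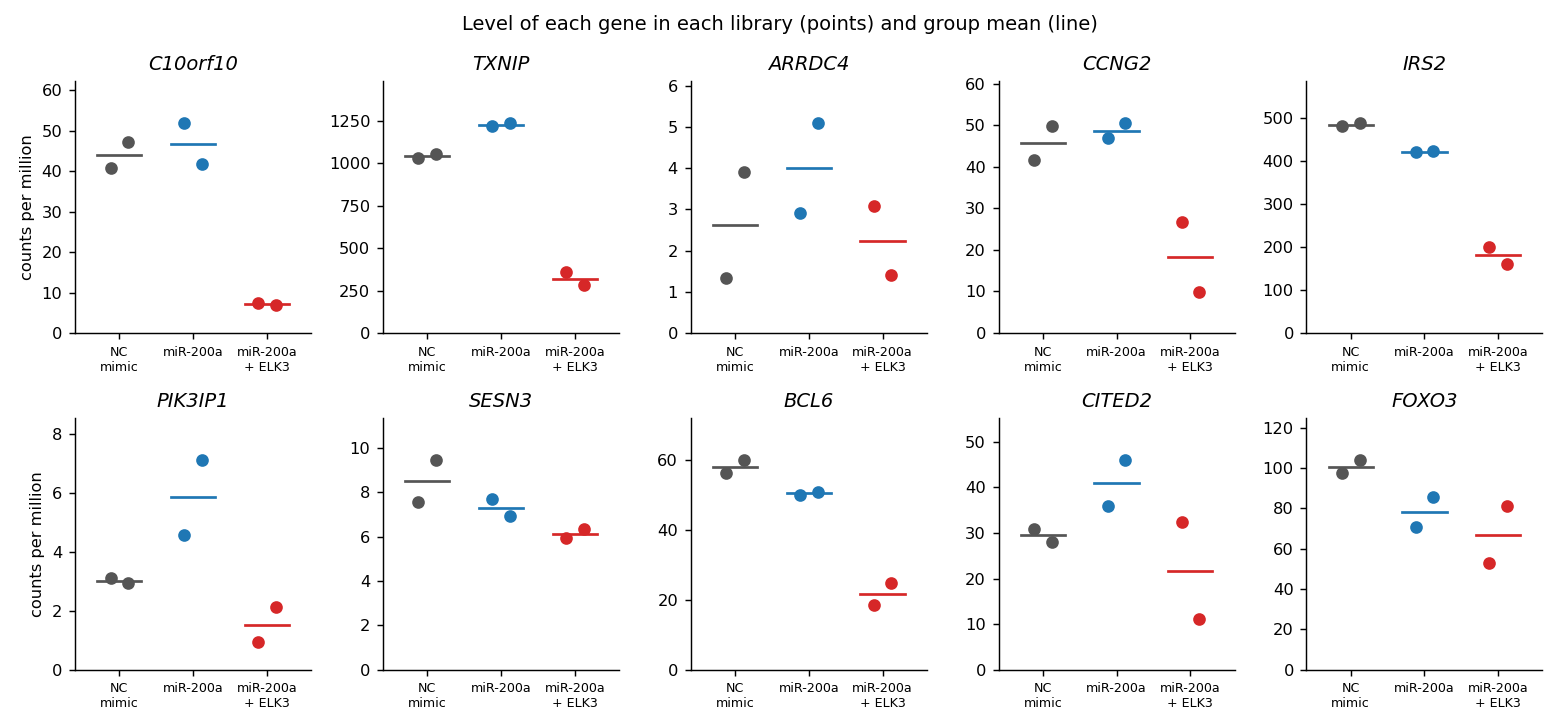
CPM of each of the 10 genes in each library, on a linear axis from 0 for each gene. Points are libraries and lines are group means. The 2 ELK3-labelled libraries lie below all 4 others for C10orf10, TXNIP, CCNG2, IRS2, PIK3IP1, SESN3 and BCL6.

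C10orf10, also called DEPP1, is a FOXO-induced gene linked to autophagy and redox balance. It had 183 and 145 counts under the NC mimic, 250 and 205 under miR-200a, and 31 and 29 in the ELK3-labelled libraries. The NC mimic and miR-200a libraries overlapped, and the 2 ELK3-labelled libraries were close together and far below. In CPM the group means were 44.0 ± 4.64 (SD, n = 2), 46.8 ± 7.17 and 7.08 ± 0.372. The fitted change was -2.72 ± 0.22 on the log2 scale against miR-200a, a level 6.59-fold lower, and -2.63 ± 0.23 against the NC mimic. These are the values the gene was picked for. Between miR-200a and the NC mimic, which played no part in the choice, the change was 0.09 ± 0.19 (adjusted p = 0.938).

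C10orf10 overlaps RASSF4, which lies on the opposite strand, and the sources used here do not say whether strand was used in counting. RASSF4 had 221 and 142 counts under the NC mimic, 239 and 228 under miR-200a, and 117 and 178 in the ELK3-labelled libraries. Its change against miR-200a was -0.47 ± 0.20 (adjusted p = 0.153).

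TXNIP binds and inhibits thioredoxin and drives the glucose transporter GLUT1 off the cell surface. Its counts were 4639 and 3231 with the NC mimic, 5880 and 6078 under miR-200a, and 1520 and 1194 in the ELK3-labelled libraries. The groups did not overlap in CPM, at 1044 ± 15.0, 1230 ± 12.5 and 320 ± 56.1 (SD, n = 2 each). TXNIP fell 3.84-fold against miR-200a (log2 fold change -1.94 ± 0.13, adjusted p = 0.000148) and 3.26-fold against the NC mimic (-1.70 ± 0.13, adjusted p = 0.00014). It passed the test in both comparisons under all 14 alternatives, with values between -2.14 and -1.80 against miR-200a.

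ARRDC4, an alpha-arrestin related to TXNIP, was barely counted. Its 6 and 12, 14 and 25, and 13 and 6 counts, in the same order of groups, overlapped in every comparison. The change against miR-200a was -0.83 ± 0.59 (adjusted p = 0.378) and that against the NC mimic was -0.13 ± 0.67 (adjusted p = 0.918), and a difference was not detectable at this depth. Without the first ELK3-labelled library the changes against miR-200a and the NC mimic were -1.50 and -0.78, and without the second -0.41 and 0.31. Without the first NC mimic library the change against it was -0.79 and without the second 0.74, and without the second miR-200a library the change against miR-200a was -0.37.

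IRS2 is the docking protein that couples the insulin and IGF receptors to PI3K, and FOXO factors induce it as a feedback. It had 2161 and 1497 counts under the NC mimic, 2026 and 2074 under miR-200a, and 843 and 688 in the ELK3-labelled libraries. In CPM these were 485 ± 5.10, 422 ± 1.38 and 181 ± 26.8, with no overlap between any of the groups. IRS2 fell 2.33-fold against miR-200a (-1.22 ± 0.13, adjusted p = 0.00121) and 2.68-fold against the NC mimic (-1.42 ± 0.13, adjusted p = 0.000301), and passed in all 14 alternatives for both.

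PIK3IP1, a membrane protein that inhibits PI3K, was a low-count gene. It had 14 and 9 counts under the NC mimic, 22 and 35 under miR-200a, and 4 and 9 in the ELK3-labelled libraries. The highest levels were in the 2 miR-200a libraries. It passed the test against miR-200a (-1.91 ± 0.50, adjusted p = 0.0346) and not against the NC mimic (-0.97 ± 0.57, adjusted p = 0.273). Without the first ELK3-labelled library these values were -1.47 and -0.51, and without the second -2.62 and -1.66. The call was kept in 5 of 12 alternatives, and was lost when only the 2 compared groups were fitted (adjusted p = 0.0703), in limma (0.0838), without either NC mimic library (0.0802 and 0.0777), without either miR-200a library (0.144 and 0.287) and without the first ELK3-labelled library (0.0583). Its antisense neighbour PIK3IP1-AS1 had 1 count in all 6 libraries together.

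CCNG2, an unconventional cyclin that slows cell cycle entry and a well-known FOXO target, differed between the 2 ELK3-labelled libraries. It had 187 and 153 counts under the NC mimic, 226 and 248 under miR-200a, and 113 and 42 in those 2 libraries, which still lay below the other 4. In CPM the means were 45.8 ± 5.85, 48.7 ± 2.55 and 18.3 ± 11.9. The change was -1.41 ± 0.34 against miR-200a (adjusted p = 0.0246) and -1.32 ± 0.34 against the NC mimic (adjusted p = 0.0324). Without the first of those libraries the value against miR-200a was -2.31 and without the second -0.90. In both comparisons the call was kept in 8 of 14 alternatives. It was lost with only the 2 compared groups (adjusted p = 0.0707 and 0.0794), in limma (0.103 and 0.107) and without any of the 4 libraries of the NC mimic and miR-200a (0.0673 to 0.222).

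BCL6 is a transcriptional repressor that FOXO factors induce and that represses cyclin D2. It had 252 and 184 counts under the NC mimic, 241 and 250 under miR-200a, and 78 and 105 in the ELK3-labelled libraries. The CPM were 58.1 ± 2.77, 50.5 ± 0.638 and 21.6 ± 4.39, with the last group below every other library. BCL6 fell 2.34-fold against miR-200a (-1.23 ± 0.19, adjusted p = 0.00469) and 2.69-fold against the NC mimic (-1.43 ± 0.19, adjusted p = 0.00197). The call against miR-200a was lost in limma (adjusted p = 0.0569) and without either miR-200a library (0.0802 and 0.0827), and that against the NC mimic without its second library (0.0518).

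CITED2 is a transcriptional coregulator that restrains HIF-1 by competing for CBP and p300. Its counts were 139 and 86 with the NC mimic, 173 and 226 under miR-200a, and 137 and 47 in the ELK3-labelled libraries, so 1 of these last 2 lay within the range of the others and 1 far below it. Neither change passed the test, at -0.91 ± 0.37 against miR-200a (adjusted p = 0.126) and -0.45 ± 0.38 against the NC mimic (adjusted p = 0.468). Its value turned on those 2 libraries. Without the first it was -1.90 (adjusted p = 1.44e-07) and -1.42 (4.23e-05), and without the second -0.37 (0.179) and 0.12 (0.738). With no low-count filter the change against miR-200a passed as well (adjusted p = 0.000963).

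SESN3, a sestrin that restrains mTORC1 and is induced by FOXO factors, had 34 and 29, 37 and 34, and 25 and 27 counts in the 3 groups. The last group was the lowest in CPM, at 6.13 ± 0.300 beside 7.30 ± 0.533 with miR-200a and 8.52 ± 1.34 with the NC mimic. The changes of -0.25 ± 0.31 (adjusted p = 0.628) and -0.46 ± 0.32 (adjusted p = 0.364) did not pass the test.

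FOXO3, one of the FOXO factors themselves, had 437 and 319 counts under the NC mimic, 341 and 420 under miR-200a, and 223 and 345 in the ELK3-labelled libraries. The 2 libraries of the last group differed the other way from those of CCNG2 and CITED2, with the second library the higher. The changes were -0.22 ± 0.20 against miR-200a (adjusted p = 0.488) and -0.59 ± 0.20 against the NC mimic (adjusted p = 0.0817). Without the second of those libraries both passed, at -0.60 (adjusted p = 0.00302) and -0.94 (8.63e-06), and without the first neither did, at 0.04 (0.846) and -0.30 (0.0822). With no low-count filter the change against the NC mimic passed as well (adjusted p = 0.0151). Reads of FOXO3 can be shared with its near-identical copy FOXO3B, so its level is uncertain. FOXO3B had 128 and 97, 90 and 133, and 86 and 102 counts in the 3 groups, and its change against the NC mimic was -0.44 ± 0.23 (adjusted p = 0.237).

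**Figure D2:**
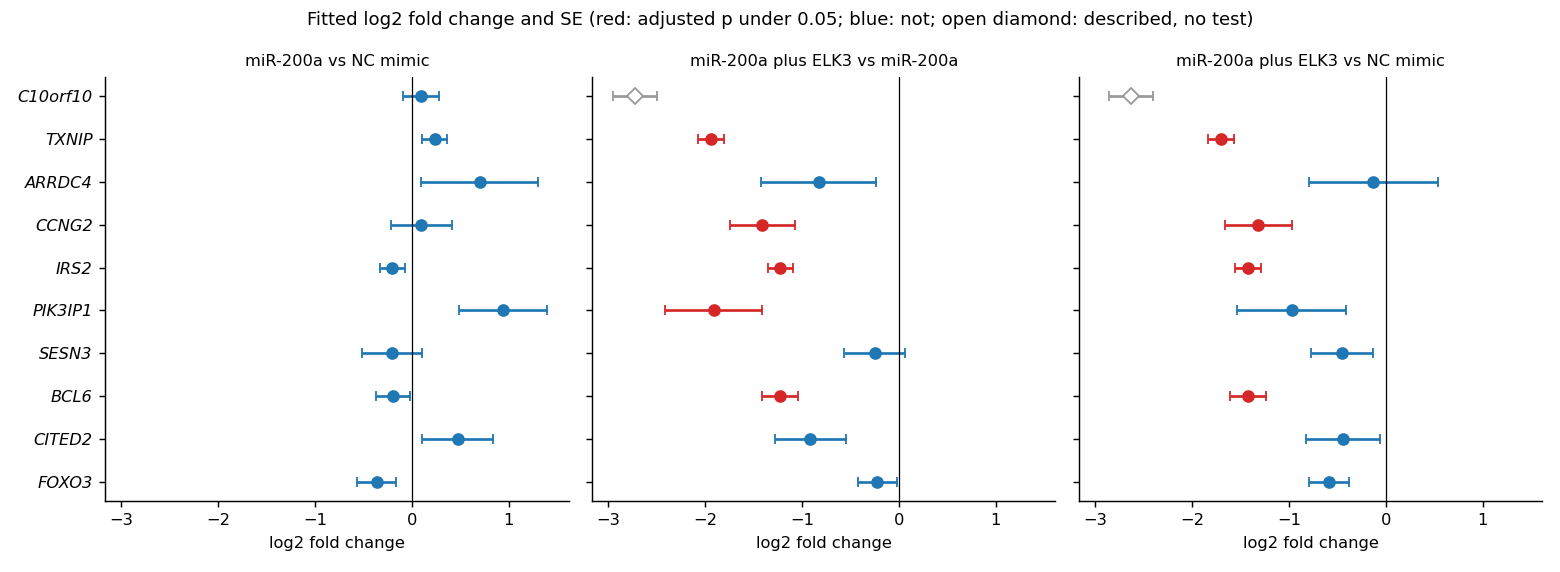
Fitted log2 fold change (point) and SE (bar) of the 10 genes in the 3 comparisons. Red marks an adjusted p under 0.05, blue marks none, and the open diamond is C10orf10 where it was not tested. The red points lie in the comparisons with the ELK3-labelled libraries and all lie below 0.

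In the comparison of the ELK3-labelled libraries with the NC mimic, 4 of the 9 tested genes fell, TXNIP, CCNG2, IRS2 and BCL6. Of all genes, 12.9% were called in this comparison and 5.95% were called lower. The median change of the 9 was -0.97, beside 0.01 over all genes. This comparison shares its ELK3-labelled libraries with the one against miR-200a, so the 2 are not independent. In each of them 7 of the 9 genes had both ELK3-labelled libraries below both libraries of the other group, where 28.0% of all genes did so against miR-200a and 27.6% against the NC mimic. With either ELK3-labelled library left out, more of all genes were called than in the fit of all 6 libraries. Counts of the 9 from those fits are therefore not set beside these shares.

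With miR-200a alone against the NC mimic, none of the 10 genes was called by edgeR, and none had an unadjusted p under 0.05. DESeq2 and limma called none either. Among all genes 0.269% were called. For 6 of the 10 genes the 2 groups did not overlap, TXNIP, PIK3IP1 and CITED2 with miR-200a the higher and IRS2, BCL6 and FOXO3 with it the lower, where 48.9% of all genes did not overlap. TXNIP changed by 0.24 ± 0.13 (adjusted p = 0.646) and PIK3IP1 by 0.94 ± 0.46 (adjusted p = 0.589). Of the 4 genes with a seed match, IRS2 changed by -0.20 ± 0.13 (adjusted p = 0.711), FOXO3 by -0.36 ± 0.20 (0.650), TXNIP as given above, and ARRDC4 by 0.70 ± 0.60 (0.797). Without the first NC mimic library the ARRDC4 value was 0.03 and without the second 1.56, and without the first miR-200a library it was 1.03 and without the second 0.23.

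When the 2 ELK3-labelled libraries were left out of the fit, TXNIP passed as higher with miR-200a (0.25, adjusted p = 0.00207) and FOXO3 as lower (-0.34, adjusted p = 0.0462). Over all genes 983 were called in that fit, beside 34 in the fit of all 3 groups. TXNIP also passed when only the first or only the second of those libraries was left out (adjusted p = 0.00178 and 0.00124), and FOXO3 when the first was (0.0480). In the fit without both, the spread is estimated from the NC mimic and miR-200a libraries alone, which lay closer together by the root mean square differences above.

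The other genes of the pathway were read from lists, some of whose genes stand in more than 1 list. Their counts of falls stand beside the 5.91% and 5.95% of all genes called lower against miR-200a and against the NC mimic. These shares hold for the edgeR fit of all 3 groups. Over all genes, that fit called 1637 and 1629 in either direction, and DESeq2 called 1241 and 1264. With only the 2 compared groups 542 and 587 were called, and in limma 107 and 391. Among 19 tested genes that FOXO factors are known to induce, 10 fell and none rose against miR-200a, with a median of -0.81, and 7 fell and none rose against the NC mimic, with a median of -0.76. No gene of this list was higher even at an unadjusted p under 0.05. In each comparison 3 fitted changes were above 0, and for 2 genes both ELK3-labelled libraries lay above the other group. TP53INP1 was 1 of these 2 in both, at 0.66 ± 0.32 against miR-200a (adjusted p = 0.196) and 0.56 ± 0.33 against the NC mimic (0.275). FBXO32, the muscle atrophy ubiquitin ligase subunit atrogin-1, had 819 and 581 counts under the NC mimic, 845 and 901 under miR-200a, and 205 and 153 in the ELK3-labelled libraries. It fell 4.25-fold against miR-200a (-2.09 ± 0.16, adjusted p = 0.000178) and its groups did not overlap there.

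SOD2, the mitochondrial superoxide dismutase, had 1025 and 720, 1218 and 1425, and 529 and 345 counts and fell by 1.40 ± 0.19 on the log2 scale (adjusted p = 0.00293). KLHL24, a ubiquitin ligase adaptor, fell by 1.31 ± 0.17 (adjusted p = 0.00259), and MXI1, a MAX partner that opposes MYC, fell by 1.09 ± 0.16 (adjusted p = 0.00429). The summed level of the 20 listed genes was 1294 and 1311 CPM with the NC mimic, 1322 and 1355 under miR-200a, and 827 and 643 in the ELK3-labelled libraries. The count against miR-200a was 10 in DESeq2 as well, 6 with only the 2 compared groups and 2 in limma. The totals over all genes given above also differed between these fits.

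The next list held FOXO factors and the PI3K and AKT branch above them. Of its 18 genes, 4 fell and none rose against miR-200a, with a median of -0.14, and 3 fell and none rose against the NC mimic, with a median of -0.32. In each, 1 was higher at an unadjusted p under 0.05. DESeq2 called 3 and 2 lower and limma 1 and 0, none higher. SGK1, a kinase related to AKT, had 75 and 63, 142 and 142, and 45 and 38 counts, and fell by 1.57 ± 0.23 on the log2 scale against miR-200a (adjusted p = 0.00446). FOXO1, a FOXO factor, fell by 0.87 ± 0.22 (adjusted p = 0.0299), RICTOR, the mTORC2 subunit, by 0.77 ± 0.19 (adjusted p = 0.0278), and IGF1R, the IGF receptor, by 0.59 ± 0.16 (adjusted p = 0.0388). With only the 2 compared groups, SGK1 alone of these 4 was called against miR-200a and none against the NC mimic.

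In the list of the MondoA circuit, thioredoxin and glucose uptake, 4 of 12 genes fell and none rose in each comparison, with medians of -0.45 against miR-200a and -0.60 against the NC mimic. None was higher at an unadjusted p under 0.05 against miR-200a and 1 was against the NC mimic. SLC2A3, the glucose transporter GLUT3, had 542 and 386, 887 and 839, and 215 and 232 counts. It fell by 1.75 ± 0.14 on the log2 scale against miR-200a (adjusted p = 0.000178) and by 1.22 ± 0.14 against the NC mimic (adjusted p = 0.000913). MLXIPL, the glucose-responsive factor ChREBP, fell by 1.38 ± 0.28 against miR-200a (adjusted p = 0.0137), and TXNRD1, the thioredoxin reductase, by 0.69 ± 0.19 against the NC mimic (adjusted p = 0.0388). The list's summed level was 1606 and 1041 CPM in the 2 ELK3-labelled libraries and 1689 to 1806 in the other 4. TXN made up 676 and 255 CPM of this in the ELK3-labelled libraries and was not called in either comparison (adjusted p = 0.459 and 0.680). In limma the list's count of falls against miR-200a was 1, where fewer of all genes were called as well.

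Of 12 tested paralogues of the 10 genes, 2 fell in each comparison and none rose, with medians of -0.58 and -0.46. At an unadjusted p under 0.05, 1 was higher against miR-200a and 0 were against the NC mimic, and limma called 0 and 2 lower. ARRDC3, an alpha-arrestin like TXNIP, had 358 and 289, 355 and 392, and 203 and 177 counts and fell in both, by 0.78 ± 0.16 and 0.95 ± 0.16 (adjusted p = 0.0154 and 0.00672). CCNG1, the paralogue of CCNG2, had 153 and 141, 130 and 137, and 75 and 79 counts, and fell by 1.13 ± 0.21 against the NC mimic (adjusted p = 0.0102).

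Proliferation genes were listed to set beside the growth restraint genes. Of 16, 8 rose and none fell against miR-200a, with a median of 0.51, where 7.03% of all genes were called higher. Against the NC mimic 5 rose and none fell, with a median of 0.40, where 6.92% of all genes were called higher. MCM3, a subunit of the replicative helicase, had 599 and 406, 530 and 569, and 881 and 979 counts and rose by 0.96 ± 0.13 against miR-200a (adjusted p = 0.00288). AURKA, a mitotic kinase, rose by 0.65 ± 0.12 (adjusted p = 0.0117), MCM4 by 0.74 ± 0.14 (adjusted p = 0.0117) and MKI67, which encodes Ki-67, by 0.67 ± 0.13 (adjusted p = 0.0133). The summed level of the list was 4463 and 5457 CPM in the ELK3-labelled libraries and 3443 to 3745 in the other 4. TOP2A made up 1823 and 2689 CPM of this in the ELK3-labelled libraries and was not called in either comparison (adjusted p = 0.0595 and 0.0688). limma called none of the 16 in either comparison, and with only the 2 compared groups 4 and 1 were called higher. In the fit without the first ELK3-labelled library, called genes of this list went both ways against the NC mimic, and more of all genes were called.

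**Figure D3:**
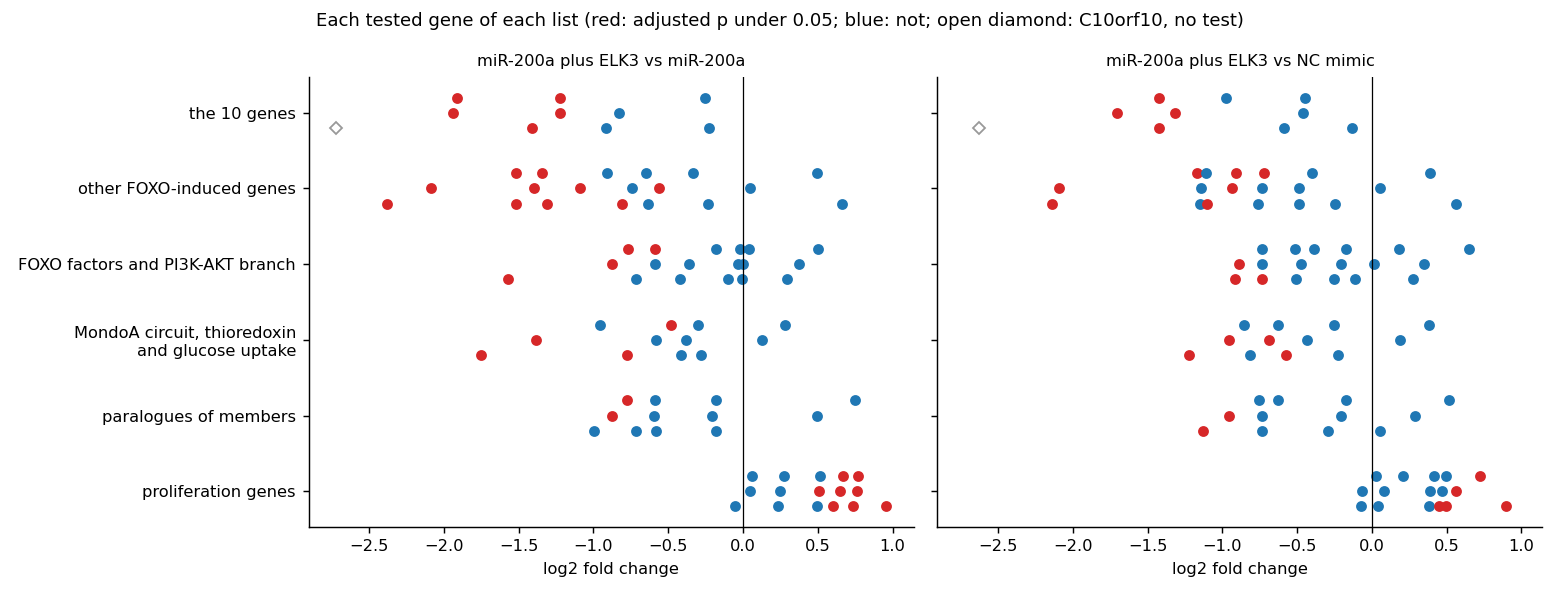
Log2 fold change of every tested gene of the 10 genes and 5 lists, against miR-200a (left) and against the NC mimic (right). Red marks an adjusted p under 0.05, blue marks none, and the open diamond is C10orf10, which was not tested. The red points of the first 5 rows lie below 0 and those of the proliferation genes above it.

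Under miR-200a alone, edgeR, DESeq2 and limma called no gene of these 5 lists. At an unadjusted p under 0.05 the counts higher and lower were 1 and 0 of the 18 FOXO and PI3K genes, 0 and 0 of the 19 FOXO-induced genes, 1 and 0 of the 12 MondoA genes, 1 and 1 of the 12 paralogues and 0 and 1 of the 16 proliferation genes. With only these 2 groups fitted, 1 gene rose and 1 fell in the FOXO and PI3K list and in the MondoA list. In that fit 1 rose among the FOXO-induced genes, and none was called among the paralogues and the proliferation genes. Over all genes it called 983.

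Of the cell line's markers, CD44, the hyaluronan receptor, had 1429 and 920, 1426 and 1652, and 922 and 831 counts. It fell by 0.61 ± 0.13 on the log2 scale against miR-200a (adjusted p = 0.0151). VIM (-0.66 ± 0.24, adjusted p = 0.0918) and CAV1 (-0.28 ± 0.16, 0.264) did not pass there. AXL went the other way, at 0.23 ± 0.14 (0.319), and did not pass either. VIM was the largest part of the marker sum under the NC mimic, at 2158 and 2463 CPM, and was at 1854 and 956 in the ELK3-labelled libraries. The luminal marker EPCAM had 39 and 40, 140 and 140, and 93 and 72 counts. Their part in the results on the 10 genes was not tested.

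The genes whose pattern over the 6 libraries was most like that of C10orf10 were found by the root mean square difference of centred log2 CPM, among 9936 other genes with a mean log2 CPM above 3. CYP1B1, a cytochrome P450, was the nearest (0.19), followed by the nuclear receptor NR4A1 (0.22), FBXO32 (0.28), the stress cytokine GDF15 (0.29) and the clock gene PER1 (0.30). CYP1B1 was at 246 and 202 CPM with the NC mimic, 225 and 230 under miR-200a, and 34.8 and 38.3 in the ELK3-labelled libraries. Of the other 9 genes described here, TXNIP was the nearest to C10orf10 (0.39) and ARRDC4 the farthest (1.15).

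For TXNIP the nearest were PPP1R3B, a glycogen-targeting subunit of protein phosphatase 1 (0.12), the cholesterol exporter ABCA1 (0.13), the sortilin-family receptor SORCS2 (0.13) and VASN (0.14). PPP1R3B was at 38.5 and 38.5 CPM with the NC mimic, 36.5 and 43.4 under miR-200a, and 12.3 and 10.8 in the ELK3-labelled libraries. FBXO32 is therefore the only gene among these 9 neighbours that is also in a list above.

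**Figure D4:**
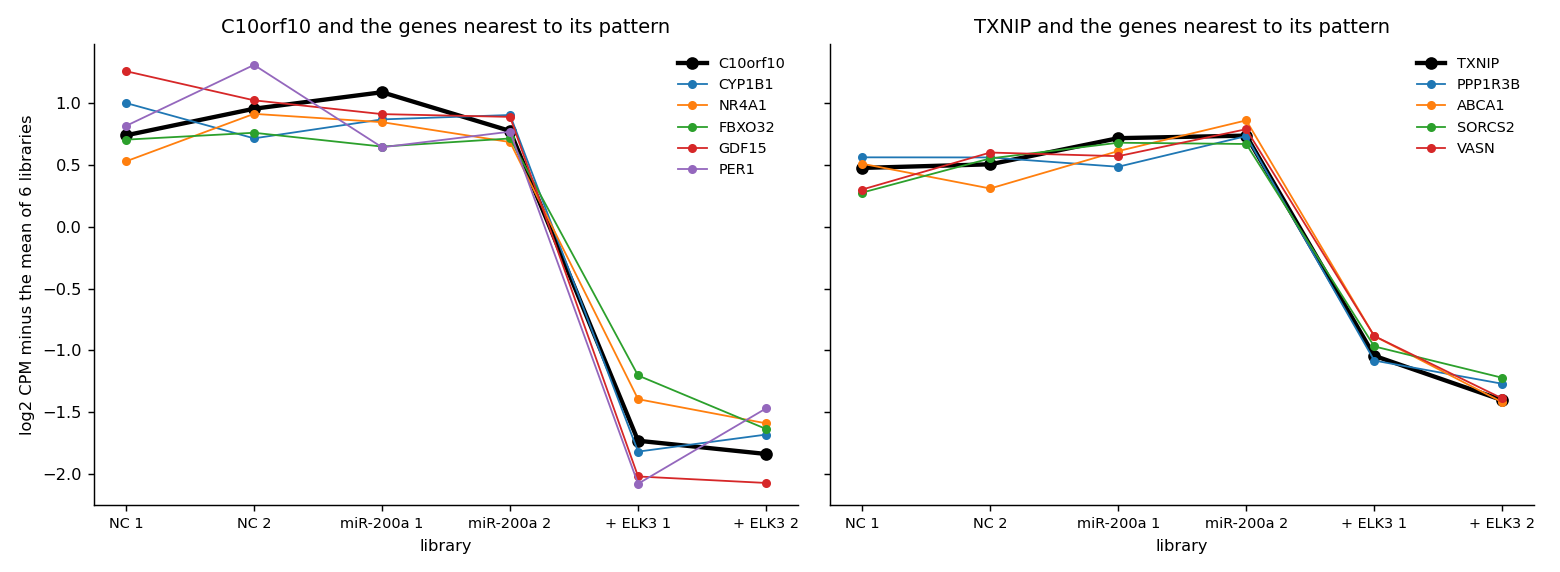
Log2 CPM minus its mean over the 6 libraries, for C10orf10 (left, black) and TXNIP (right, black) and the genes nearest to each in pattern (coloured, 5 for C10orf10 and 4 for TXNIP). All lines are high in the 4 NC mimic and miR-200a libraries and low in the 2 ELK3-labelled libraries. The coloured genes were selected for this likeness, so their shared drop follows from the selection.

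The levels of the 10 genes together summed to 1793 and 1848 CPM with the NC mimic, 1912 and 1955 under miR-200a, and 707 and 586 in the ELK3-labelled libraries. TXNIP and IRS2 make up most of these sums, so they say little of the low-count genes. Order among the members by fitted change against miR-200a ran from C10orf10 (-2.72) over TXNIP (-1.94), PIK3IP1 (-1.91), CCNG2 (-1.41), BCL6 (-1.23), IRS2 (-1.22), CITED2 (-0.91), ARRDC4 (-0.83) and SESN3 (-0.25) to FOXO3 (-0.22). TXNIP and PIK3IP1, CCNG2 and BCL6, BCL6 and IRS2, CITED2 and ARRDC4, and SESN3 and FOXO3 were each apart by less than the smaller SE of the pair, so their order is not resolved. No difference between members was tested, so the order of the other pairs is not established either. The SE were widest for PIK3IP1 (0.50), CITED2 (0.37) and ARRDC4 (0.59).

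**Figure D5:**
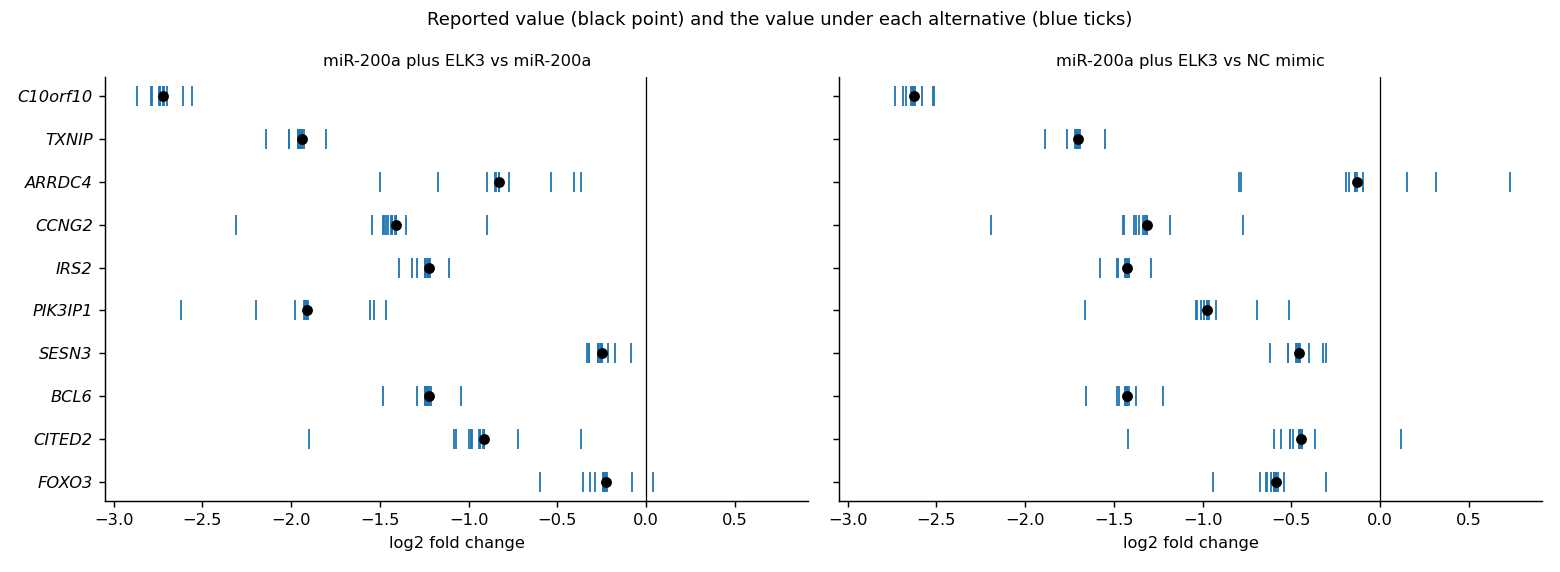
Log2 fold change of the 10 genes as reported (black point) and under each alternative, including each library left out (blue ticks). TXNIP, IRS2, BCL6 and C10orf10 stay within a narrow band, while CCNG2, PIK3IP1, CITED2, ARRDC4 and FOXO3 spread, with ARRDC4, CITED2 and FOXO3 reaching above 0 in some alternatives.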

How the data were processed

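RNA of 6 MDA-MB 231 libraries (2 per group) was measured by QuantSeq 3′ mRNA sequencing. The deposited values are raw counts, 1 per gene symbol and library, which the authors had not normalized; the submitters' processing notes name Bowtie2, edgeR and the build hg19 with no role, and the counting program, annotation and use of strand are not given in the sources used here. Each file had 25737 lines and 24462 symbols, and the 286 symbols on several lines were summed. Groups came from the labels.

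Counts were tested in R 4.3.3 with edgeR 4.0.16 (TMM, filterByExpr with a minimum count of 10, quasi-likelihood test, all 3 groups in 1 model with 3 residual degrees of freedom) and Benjamini-Hochberg adjustment over 12650 genes. CPM used TMM-scaled totals. At 3 counts, the floor was 0.611 to 0.979 CPM per library, for counting error only. Alternatives were DESeq2 1.42.0, limma 3.58.1 on quantile-normalized log2(count + 1), other filters and scaling, a replicate block, a model without the group not compared, and each library left out.

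Named genes were the 10 members, up to 4 genes per list with an adjusted p under 0.05 in any comparison (smallest p first), ELK3, the 5 genes most like C10orf10 and TXNIP (1 of them is not reported here), and overlapping or near-identical genes. SESN3 and all other members are named whatever their values; EPCAM, the summed markers and the markers at 0 were named after their values were seen. The members and lists were chosen with earlier results of these data known. The labels number the replicates of each group, but same-numbered libraries did not deviate together (correlations of -0.108 to -0.003), so the number was no block.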

Additional observations from a re-analysis of the deposited data

How the results depend on the processing

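Among 409 fitted changes of the 10 genes under an alternative, 374 kept their side of the threshold (for C10orf10, stayed within the replicate spread), 23 lost a call, 11 gained one and none reversed as a called change; the change of C10orf10 against miR-200a without the first miR-200a library, -2.56, moved by more than the replicate spread. Many of the 374 were changes that were not called as reported and stayed uncalled, so the 374 do not measure how firm the calls are. All 23 lost calls were of CCNG2, PIK3IP1 and BCL6. TXNIP and IRS2 kept their calls in both comparisons with the ELK3-labelled libraries throughout. The number of called genes among the 9 or 10 tested was 5 against miR-200a, and became 3 with only the 2 compared groups and 2 in limma. For miR-200a against the NC mimic it went from 0 to 2 with only those 2 groups. The cause was not tested. Leaving out 1 library gave 2 to 6 against miR-200a, 2 to 5 against the NC mimic and 0 to 2 under miR-200a alone; where this leaves a group with 1 library, that library is assumed to vary like the others. With the replicate block the counts were 5, 4 and 0, the block changed no call of these genes, the list counts went from 10 to 8 (FOXO-induced), 4 to 3 (FOXO and PI3K), 4 to 3 (MondoA) and 8 to 7 (proliferation) against miR-200a and from 3 to 2 (FOXO and PI3K), 4 to 3 (MondoA) and 5 to 3 (proliferation) against the NC mimic, and crossing the numbers of the ELK3-labelled libraries, chosen after seeing the data, gave 5, 4 and 0 as well.

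Over all genes, the counts called in the ELK3-labelled libraries against miR-200a and against the NC mimic, and under miR-200a alone, were 1637, 1629 and 34. They were 542, 587 and 983 with only the 2 compared groups, 107, 391 and 4 in limma, 2490, 2525 and 230 with no low-count filter, 1241, 1264 and 88 in DESeq2, 1157, 1170 and 13 with the replicate block, and 1644, 1661 and 22 with it crossed. Without the first or the second ELK3-labelled library they were 4684, 4675 and 985, or 2892, 2926 and 1010. Depth limits ARRDC4, PIK3IP1 and SESN3, whose libraries held 4 to 37 counts.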
